A study of Mus musculus with 16 samples.

Results

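The Zscan4 cluster is a group of near-identical genes on mouse chromosome 7. Its members here were the 6 genes Zscan4a to Zscan4f, found by matching the Ensembl identifiers of the deposited gene count table to these symbols, so they were 6 of 56941 Ensembl genes in that table. All 6 passed the filter on low counts that left 31057 genes for testing. On GRCm39 they lay at 10528169 to 10532984 (Zscan4a, minus strand), 10634667 to 10638977 (Zscan4b, minus), 10739672 to 10744474 (Zscan4c, plus), 10895301 to 10900086 (Zscan4d, minus), 11039241 to 11044609 (Zscan4e, minus) and 11131842 to 11136245 (Zscan4f, plus), a span of 608.1 kb. GENCODE M21 lists Zscan4a as an unprocessed pseudogene, and RefSeq lists Zscan4a and Zscan4e as pseudogenes, so reads counted on a copy do not say that it makes protein.

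The RNA sequenced was that of the chromatin-associated fraction of E14TG2a, a line of mouse embryonic stem cells derived from the inner cell mass of the blastocyst. Per the labels, all cells were kept in serum with LIF at 1000 U per ml, a cytokine that holds the pluripotent state, PD0325901 at 1 µM, a MEK inhibitor, and CHIR99021 at 3 µM, a GSK3 inhibitor. Every group ectopically expressed a histone demethylase, either with its intrinsically disordered region (IDR, a stretch without a fixed fold) deleted, called del-IDR here, or full-length, called FL: KDM4A and KDM4B, which remove methyl groups from H3K9 and H3K36, or KDM6A and KDM6B, which remove them from H3K27. There were 8 groups of 2 libraries, namely KDM4A del-IDR, KDM4A FL, KDM4B del-IDR, KDM4B FL, KDM6A del-IDR, KDM6A FL, KDM6B del-IDR and KDM6B FL, and each deletion was compared with the full-length form of the same protein. The sample titles name the deleted region cIDR and the genotype labels IDR, and neither says which residues were removed, what drives the transgene or whether a line is 1 clone. Nothing in the labels ties the 2 libraries of a group to separate cultures, and the spread behind each p-value may be technical only. No group was without a construct, so a lowering by a del-IDR form and a raising by an FL form cannot be told apart.

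Zscan4 proteins carry a SCAN domain and zinc fingers and are known in the mouse for a burst of expression in the 2-cell embryo, when the zygotic genome is first transcribed. In cultures of mouse embryonic stem cells most cells are silent for these genes and a rare, passing fraction, often called 2-cell-like, expresses them strongly together with MERVL, an endogenous retrovirus of the ERVL family. ZSCAN4 is known to act in telomere lengthening and genome stability in these cells, and the cluster is switched on downstream of the transcription factor DUX. In bulk RNA such as this, fewer cells that express the cluster and less Zscan4 RNA per cell cannot be told apart.

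The sequence just before the transcription start shows how alike the copies are. RefSeq sequences on GRCm38.p6 were at hand for 4 of the 6 genes. Below are the 250 bases upstream of the start of Zscan4d, the copy that fell most when KDM4A lost its IDR, of Zscan4b, the copy that fell least there, and of Zscan4f, whose stretch is closest to that of Zscan4c. They are read along the gene's strand, at chr7:11166149-11166398 (minus), chr7:10905051-10905300 (minus) and chr7:11397665-11397914 (plus), and the capitals mark the letters TATAAA.
Zscan4d: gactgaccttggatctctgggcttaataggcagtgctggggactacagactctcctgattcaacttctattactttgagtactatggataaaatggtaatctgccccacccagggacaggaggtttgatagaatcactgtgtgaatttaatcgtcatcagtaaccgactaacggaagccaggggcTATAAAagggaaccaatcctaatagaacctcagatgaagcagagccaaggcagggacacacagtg
Zscan4b: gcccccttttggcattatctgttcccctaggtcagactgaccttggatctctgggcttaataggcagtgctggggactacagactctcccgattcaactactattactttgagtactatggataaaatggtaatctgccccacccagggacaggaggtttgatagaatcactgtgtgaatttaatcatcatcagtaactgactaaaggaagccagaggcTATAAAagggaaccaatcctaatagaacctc
Zscan4f: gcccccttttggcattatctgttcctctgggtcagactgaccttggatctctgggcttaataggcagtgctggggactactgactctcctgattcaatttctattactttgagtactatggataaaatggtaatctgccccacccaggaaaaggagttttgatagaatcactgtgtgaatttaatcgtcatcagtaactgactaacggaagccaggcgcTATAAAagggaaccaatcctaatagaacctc
Over 300 bases around the start, the 6 pairs of these 4 genes were 95.3% to 99.3% identical (median 97.3%). The letters TATAAA, searched on both strands, stood in all 4, at 31 to 26 bases before the start in Zscan4b and Zscan4f, 54 to 49 in Zscan4c and 65 to 60 in Zscan4d, and in 13.616% of 32851 RefSeq promoters of the same length. The letters GATTNAATC, part of the site DUX is known to prefer, were found in 0.268% of all promoters, TGCACAC, a ZSCAN4 motif, in 4.396%, and the octamer ATGCAAAT in 1.735%, and none of these stood in the 4 Zscan4 windows.

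The transcripts are as alike as the promoters. Spliced transcripts of the 6 genes were 96.6% to 99.7% identical over 15 pairs (median 97.6%). Of all 100-base windows along the transcript, 70.4% occurred in no transcript of another Zscan4 gene or pseudogene for Zscan4d and 60.9% for Zscan4a. The rest of the genome was not searched. The share was lower in the other copies, at 27.2% for Zscan4c, 21.3% for Zscan4b, 15.9% for Zscan4e and 10.5% for Zscan4f. The authors counted only reads that HISAT2 placed at 1 position with a mapping quality of at least 30, so reads from shared stretches could be lost and a single copy is less certain than the sum of the 6.

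Libraries held 32739117 to 54890756 reads over genes, of which 2394 to 17206 fell on the 6 Zscan4 genes. Levels are CPM, the reads of a gene scaled to a common total of gene reads after TMM scaling, which makes them relative to the typical gene of the library. Markers of embryonic stem cells were all detected, at a summed 1415 to 2154 CPM over 8 genes, while 6 fibroblast markers summed to 3.49 to 8.15 CPM, with up to 3 of them at 0. Kdm6a, the gene of KDM6A, stood at 435 and 415 CPM in KDM6A del-IDR and at 441 and 425 CPM in KDM6A FL, against 95.7 to 156 CPM in the other libraries. Kdm4a, Kdm4b and Kdm6b did not stand apart in this way in the libraries of their own construct, and the labels do not say whether reads of a construct can count on the mouse gene. ERCC spike-in RNAs, which the labels do not mention, made up 0.578% to 1.53% of reads and were most frequent in KDM6B del-IDR. Scaling by them moved the median of all genes in the del-IDR over FL comparison to -0.70 (KDM4A), -0.18 (KDM4B), -0.21 (KDM6A) and -0.38 (KDM6B) on the log2 scale, against medians of -0.05, 0.01, 0.00 and 0.00 with TMM. With that scaling 7.61%, 25.1%, 5.84% and 4.74% of the genes called in the 4 comparisons were higher, against 48.7%, 51.5%, 49.0% and 48.0% with TMM. Counts of list members with ERCC scaling below stand beside this shift, and the share of all genes that fell with it is not given.

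The cluster was far lower without the IDR of KDM4A or KDM4B, slightly lower without that of KDM6A, and slightly higher without that of KDM6B. Summed over the 6 genes, it stood at 86.0 and 88.9 CPM in KDM4A del-IDR and at 366.8 and 336.8 CPM in KDM4A FL. For KDM4B it stood at 139.7 and 132.4 CPM in del-IDR and at 420.3 and 414.9 CPM in FL. In neither case did the libraries of the groups overlap. KDM6A del-IDR held 206.0 and 204.1 CPM and KDM6A FL 261.3 and 247.2 CPM. KDM6B del-IDR held 62.6 and 63.9 CPM and KDM6B FL 55.1 and 54.1 CPM. These groups did not overlap either, but the KDM6 differences were small beside the gap between the KDM6A and the KDM6B libraries.

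**Figure D1:**
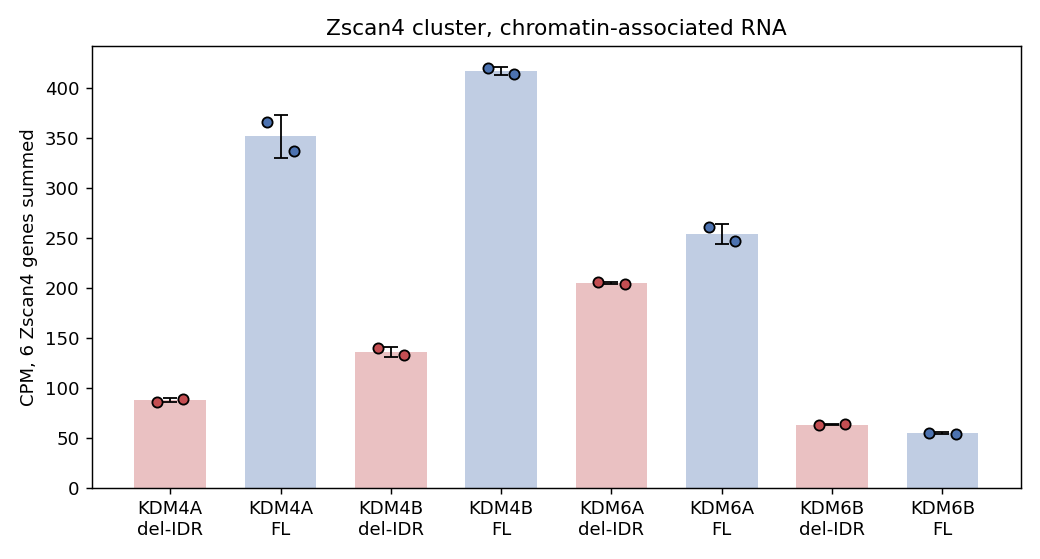
Zscan4 cluster level (CPM, 6 genes summed, TMM-scaled) in the 8 groups, with del-IDR (red) left of FL (blue) for each demethylase. Points are libraries, bars are means and whiskers are 1 SD (n = 2). The KDM4A and KDM4B bars of del-IDR, at 87.5 and 136 CPM, stand well below those of FL at 352 and 418 CPM, and the KDM6B bars are the lowest of the FL groups and of the del-IDR groups.

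From high to low the groups ran KDM4B FL (418 ± 3.87 CPM, SD, n = 2), KDM4A FL (352 ± 21.2), KDM6A FL (254 ± 10.0), KDM6A del-IDR (205 ± 1.36), KDM4B del-IDR (136 ± 5.16), KDM4A del-IDR (87.5 ± 2.06), KDM6B del-IDR (63.2 ± 0.936) and KDM6B FL (54.6 ± 0.738). The highest group stood 7.65-fold above the lowest. No 2 neighbours in this order overlapped, although with 2 libraries each the ranges are narrow by construction. The 3 highest groups all expressed a full-length protein, yet the full-length group of KDM6B was at the bottom.

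Each comparison was tested with edgeR's quasi-likelihood test in 1 fit of all 16 libraries, with Benjamini-Hochberg adjustment over all genes, and "rose" or "fell" below means an adjusted p under 0.05. For the cluster sum the log2 fold change of del-IDR over FL was -2.01 ± 0.04 in KDM4A (SE, adjusted p = 2.7e-30, 4.02-fold lower) and -1.62 ± 0.04 in KDM4B (adjusted p = 3.9e-27, 3.07-fold lower). It was -0.31 ± 0.04 in KDM6A (adjusted p = 7.0e-07) and 0.21 ± 0.04 in KDM6B (adjusted p = 4.0e-04). The KDM6B rise turned to -0.17 with ERCC scaling (adjusted p = 0.0263), while the 3 falls kept their direction at -2.66, -1.81 and -0.53. Averaged over the 4 demethylases, del-IDR minus FL was -0.93 on the log2 scale in an exact two-sided permutation test stratified by demethylase (p = 0.0154, where the design allows 0.00154 at the least).

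In KDM4A every copy fell. All 6 members passed, against 25.9% of all tested genes that fell in this comparison, with changes from -2.44 to -1.68 (median -1.89, all genes -0.05). Zscan4d had 12.5 and 14.01 CPM in KDM4A del-IDR, against 72.6 and 71.1 CPM in KDM4A FL, and changed most (-2.44 ± 0.08, adjusted p = 7.7e-25). Zscan4e followed with 18.6 and 19.5 CPM in del-IDR, against 87.2 and 78.5 CPM in FL (-2.12 ± 0.07, adjusted p = 9.8e-26). Zscan4b, the smallest contributor, had 8.0 and 6.5 CPM in del-IDR, against 24.6 and 22.1 CPM in FL (-1.68 ± 0.11, adjusted p = 7.3e-16). No copy's libraries overlapped between these groups. Groups of 2 libraries can be apart by chance alone, and the share of all genes without overlap is not given for any comparison. Zscan4a (-1.93), Zscan4f (-1.85) and Zscan4c (-1.80) lay between. The 95% interval of Zscan4d, -2.62 to -2.26, lay below those of Zscan4a, Zscan4b, Zscan4c and Zscan4f and overlapped that of Zscan4e, -2.27 to -1.97, at its edge. The intervals here and below use the 8 residual degrees of freedom alone. The test itself uses more, so they are wider than its own would be. A difference between copies was not tested.

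KDM4B gave the same direction with smaller steps. All 6 members fell, against 17.6% of all genes, with changes from -1.79 to -1.46 (median -1.62, all genes 0.01). Zscan4d had 24.9 and 26.1 CPM in KDM4B del-IDR, against 89.2 and 87.8 CPM in KDM4B FL (-1.79 ± 0.07, adjusted p = 4.2e-21). Zscan4f had 19.3 and 20.01 CPM in del-IDR, against 57.1 and 51.0 CPM in FL, and changed least (-1.46 ± 0.08, adjusted p = 9.0e-18). Each group's libraries agreed closely for both copies and lay far from those of the other group.

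**Figure D2:**
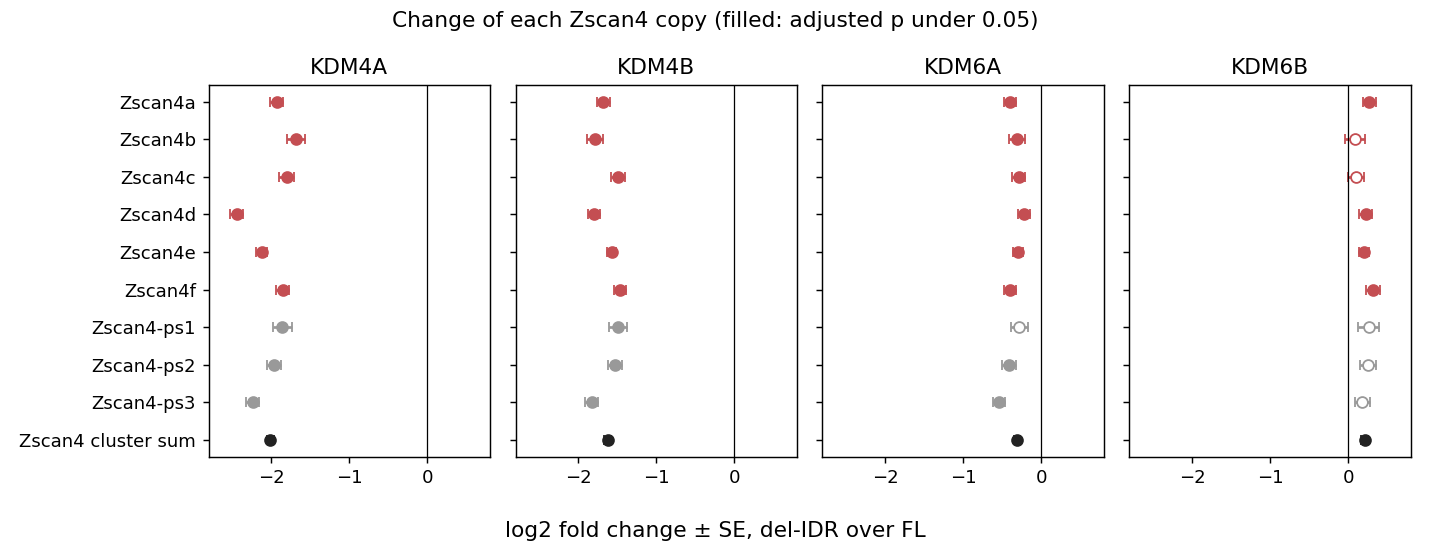
log2 fold change of del-IDR over FL (horizontal axis, whiskers 1 SE) for each Zscan4 gene (red), 3 Zscan4 pseudogenes (grey) and the sum of the 6 genes (black), in 1 panel per demethylase. Filled points passed an adjusted p of 0.05 (edgeR), open ones did not. All points in the KDM4A and KDM4B panels lie below -1.4, with Zscan4d lowest at -2.44 in KDM4A, and those in the KDM6A and KDM6B panels lie between -0.54 and 0.32.

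The cluster was lower in del-IDR than in FL by a larger step in KDM4A than in KDM4B. The difference between the deletion effects was -0.39 ± 0.06 for the sum (interaction term in the same fit, adjusted p = 2.5e-06), and -0.86 with ERCC scaling. Of the members, 3 passed in that direction, against 15.6% of all genes: Zscan4d (-0.65 ± 0.11), Zscan4e (-0.55 ± 0.09) and Zscan4f (-0.39 ± 0.11). Zscan4a (-0.25), Zscan4b (0.10) and Zscan4c (-0.31) did not pass, although Zscan4a and Zscan4c did with ERCC scaling, without a filter, in a fit of the 8 KDM4 libraries and without either KDM6B del-IDR library, making 5 members. Zscan4c, but not Zscan4a, also passed in a fit with the replicate number as a block. The groups behind this difference were apart at both ends. KDM4A FL was lower than KDM4B FL for the sum (-0.25 ± 0.04, adjusted p = 1.9e-05), with 4 of 6 members lower against 10.8% of all genes, 2 of 6, Zscan4d and Zscan4e, without replicate 2 of KDM4A FL, and 6 of 6 with ERCC scaling (-0.70 for the sum). KDM4A del-IDR was lower than KDM4B del-IDR (-0.64 ± 0.04, adjusted p = 2.6e-15), with 5 of 6 members lower, all but Zscan4b, against 22.6% of all genes. With ERCC scaling this gap was -1.56 for the sum and Zscan4b passed as well (-1.13). The shares of all genes called with ERCC scaling are not given for these comparisons between KDM4A and KDM4B. Member counts with that scaling are therefore no result about the members alone.

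In KDM6A the falls were slight but shared by the copies. All 6 members fell, against 8.65% of all genes, with changes from -0.40 to -0.22 (median -0.30, all genes 0.00). Zscan4a had 32.9 and 35.1 CPM in KDM6A del-IDR, against 47.4 and 42.5 CPM in KDM6A FL (-0.40 ± 0.08, adjusted p = 1.8e-04). Zscan4d had 44.7 and 40.7 CPM in del-IDR, against 49.6 and 49.7 CPM in FL (-0.22 ± 0.07, adjusted p = 0.0336). The groups did not overlap for either copy. Zscan4b, Zscan4c and Zscan4d no longer passed when either FL library was left out, and 3 members then fell, namely Zscan4a, Zscan4e and Zscan4f.

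In KDM6B, 4 members rose, against 9.89% of all genes: Zscan4f (0.32 ± 0.09), Zscan4a (0.27 ± 0.09), Zscan4d (0.23 ± 0.08) and Zscan4e (0.20 ± 0.07). Zscan4f had 11.7 and 10.7 CPM in KDM6B del-IDR, against 8.99 and 9.03 CPM in KDM6B FL (adjusted p = 0.00573), and the groups did not overlap. Zscan4c had 10.8 and 13.8 CPM in del-IDR, against 11.96 and 10.9 CPM in FL, so that its groups overlapped, and its 95% interval ran from -0.12 to 0.33. For Zscan4b, which also overlapped, the interval was -0.20 to 0.38. These rises rested on single libraries and on the scaling. No member passed without replicate 2 of KDM6B del-IDR or with ERCC scaling, and 2 passed without either FL library.

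The deletion effects of KDM6A and KDM6B differed by -0.52 ± 0.06 for the sum (interaction term, adjusted p = 2.8e-08). Of the members 5 passed, all but Zscan4b, against 10.7% of all genes, led by Zscan4f (-0.71 ± 0.12) and Zscan4a (-0.68 ± 0.12), and 3 passed with ERCC scaling. A wider gap lay between the demethylases themselves. KDM6A FL exceeded KDM6B FL by 2.22 ± 0.05 for the sum (adjusted p = 8.4e-32, 4.66-fold), with 6 of 6 members higher against 25.7% of all genes. KDM6A del-IDR exceeded KDM6B del-IDR by 1.70 ± 0.04 (adjusted p = 1.0e-28), again with 6 of 6 members higher, against 31.1% of all genes. The share of ERCC reads, at 1.14% to 1.53% in the KDM6B libraries and 0.691% to 0.806% in the KDM6A libraries, moved with this gap, and its part in it was not tested. With ERCC scaling the gap of the full-length forms was 3.14. The shares of all genes called with that scaling are not given for the comparisons between KDM6A and KDM6B, so its member count stands without a background.

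The copies were not equally abundant. Per kb of counted exon, Zscan4d led in KDM4B FL with 38.96 ± 0.442 CPM per kb (SD, n = 2), followed by Zscan4a (33.1 ± 0.450), Zscan4c (30.6 ± 0.848), Zscan4f (27.6 ± 2.22), Zscan4e (19.1 ± 0.604) and Zscan4b (16.04 ± 0.688). In KDM4A del-IDR the order was another: Zscan4c (7.63 ± 0.404), Zscan4a (7.27 ± 0.490) and Zscan4f (7.14 ± 0.353) were within their spread of each other, and Zscan4d followed with 5.83 ± 0.471 CPM per kb. The counted exons of Zscan4e, 5285 bases, include an exon entry that keeps an intron, while its spliced transcript has 1745 bases, so its level per kb is low by construction. The copies with the most windows of their own, Zscan4d and Zscan4a, also had the highest levels per kb in KDM4B FL, and the part of read assignment in these levels was not tested.

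Over the 16 libraries the log2 CPM of each copy correlated with that of the sum at r = 0.988 (Zscan4b) to 0.998 (Zscan4e), a description in which each copy is part of the sum. Zscan4e contributed 21.8% to 25.1% of the cluster's reads in group means and Zscan4b 6.12% to 8.30%. These shares are not scaled by length, and the counted exons of Zscan4e are the longest. The share that shifted most between del-IDR and FL was that of Zscan4d, with 15.1% ± 0.868 in KDM4A del-IDR against 20.5% ± 0.933 in KDM4A FL, and 18.8% ± 0.0816 in KDM4B del-IDR against 21.2% ± 0.0441 in KDM4B FL (SD, n = 2). In the KDM6B groups its share was low in both, at 16.8% ± 1.83 in del-IDR and 16.6% ± 1.53 in FL. Zscan4c moved the other way in KDM4A, with 19.8% ± 0.583 in del-IDR against 17.2% ± 0.0387 in FL.

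**Figure D3:**
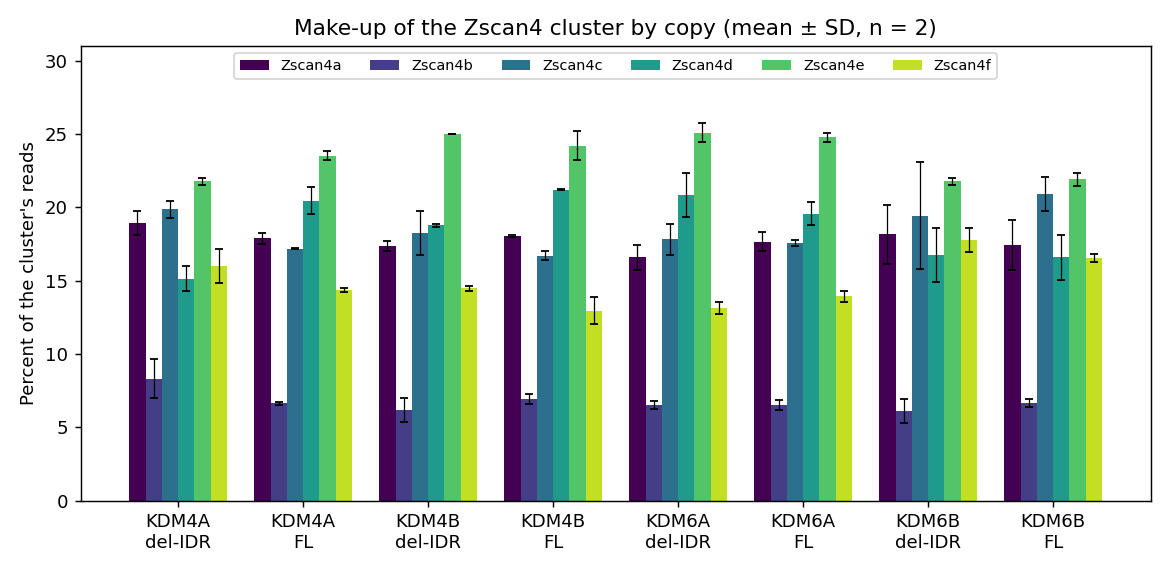
Share of the cluster's reads (vertical axis, percent) that fell on each of the 6 copies, by group, with del-IDR left of FL for each demethylase. Bars are means and whiskers 1 SD (n = 2). Zscan4e, which has the longest counted exons (5285 bases), takes the most reads in each group and Zscan4b the fewest. The Zscan4d bar is lower in KDM4A del-IDR (15.1%) than in KDM4A FL (20.5%).

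The 3 Zscan4 pseudogenes of the same locus, which share sequence with the genes, followed them. Zscan4-ps3 had 9.03 and 9.83 CPM in KDM4A del-IDR, against 45.5 and 43.1 CPM in KDM4A FL (-2.23 ± 0.08, adjusted p = 3.7e-23), and Zscan4-ps1 (-1.86) and Zscan4-ps2 (-1.96) also fell. All 3 fell in KDM4B as well, by -1.83 for Zscan4-ps3, -1.53 for Zscan4-ps2 and -1.49 for Zscan4-ps1. In KDM6A Zscan4-ps3 (-0.54) and Zscan4-ps2 (-0.41, but -0.31 and not passing without replicate 1 of FL) fell, and in KDM6B none passed.

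Other genes of the 2-cell stage were set beside the cluster, from a list of 32 that holds no Zscan4 gene, with 30 tested. In KDM4A 25 fell and 1 rose (median -1.36), where 25.9% of all genes fell and 24.6% rose. In KDM4B 15 fell and 0 rose (median -0.58), where 17.6% of all genes fell and 18.6% rose. Their summed level was 154 and 158 CPM in KDM4A del-IDR against 380 and 392 CPM in KDM4A FL. The cluster thus had company in both KDM4 comparisons, although the medians of the list were closer to 0 than those of the Zscan4 copies. In KDM6A 6 fell and 0 rose (median -0.12), where 8.65% of all genes fell and 8.3% rose, but 1 fell without replicate 2 of KDM6A del-IDR and 2 without replicate 1 of KDM6A FL. In KDM6B 2 fell and 2 rose (median -0.02), where 10.7% of all genes fell and 9.89% rose, and 12 fell and 0 rose with ERCC scaling. Most of all genes called with that scaling were lower there too, as given above.

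The 6 list members with the smallest p over the 4 comparisons were Gm5662, Gm2016, Gm5039, Gm2022, Usp17le and Usp17lb, the last pair belonging to the USP17 family of deubiquitinases. All 6 fell in KDM4A and in KDM4B, but they were picked by their p in these same comparisons, so passing was partly built into the choice. Gm2022 had 7.40 and 7.77 CPM in KDM4A del-IDR, against 26.6 and 28.8 CPM in KDM4A FL (-1.87 ± 0.11, adjusted p = 1.9e-17), and Gm5662 had 19.05 and 20.6 CPM in del-IDR, against 56.2 and 57.1 CPM in FL (-1.52 ± 0.07, adjusted p = 3.8e-20). Neither gene's groups overlapped. Duxf3, the gene of DUX, was rare in all libraries (0.248 to 1.34 CPM) and did not go with the cluster. It had 1.19 and 1.34 CPM in KDM4A del-IDR, against 0.745 and 0.384 CPM in KDM4A FL, and rose (1.17 ± 0.44, adjusted p = 0.024), being the 1 riser of the list there. Duxf3 also rose in KDM6B (1.42 ± 0.46, adjusted p = 0.024), and did not pass in KDM4B (0.28) or KDM6A (-0.83). Neither rise passed with ERCC scaling (0.52 and 1.03). The KDM4A rise did not pass without either del-IDR library (1.23 and 1.10) or without replicate 2 of FL (0.76), nor the KDM6B rise without replicate 2 of del-IDR (0.97) or of FL (1.11). Duxf3 belongs to a repeated gene array, so its counts are as uncertain as those of the Zscan4 copies.

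**Figure D4:**
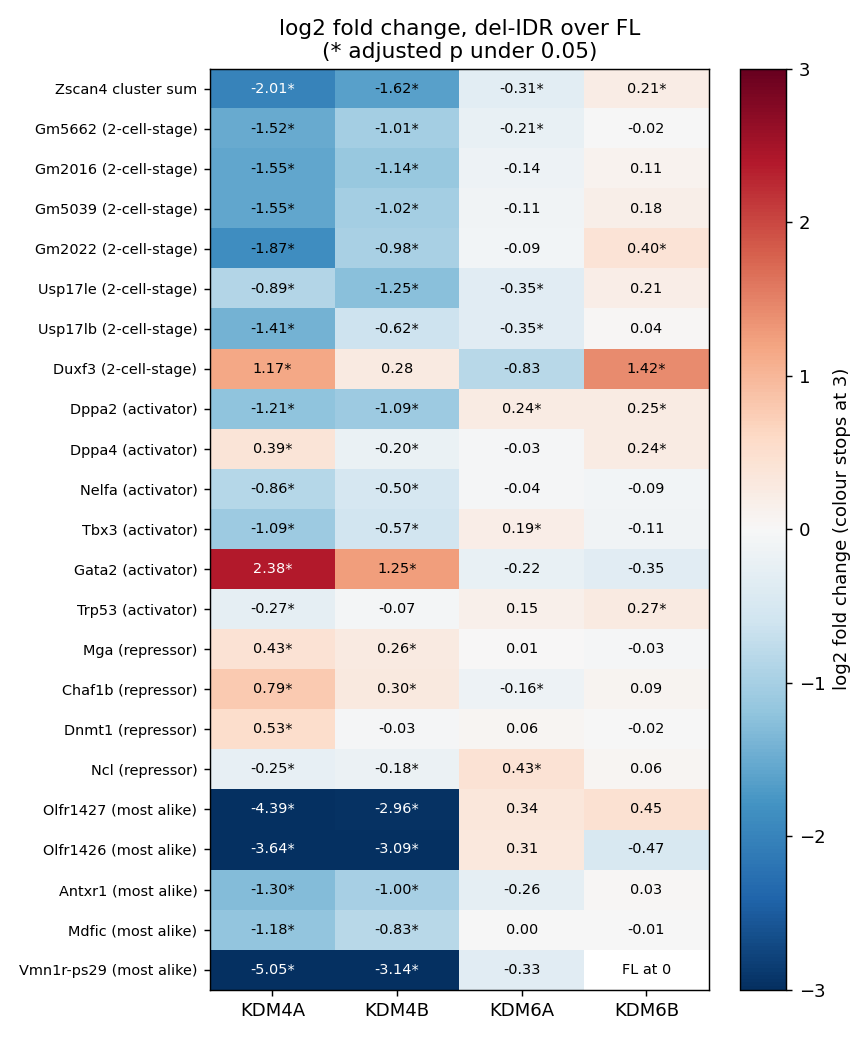
log2 fold change of del-IDR over FL (colour and number, stars at adjusted p under 0.05, edgeR) for the Zscan4 sum, named 2-cell-stage genes, known activators and repressors of the 2-cell-like state, and the 5 genes whose levels were most like the cluster's, with 1 column per demethylase. The named 2-cell-stage genes other than Duxf3 are below 0 in the KDM4A and KDM4B columns, and Duxf3 and Gata2 are above 0 there. These 2-cell-stage genes other than Duxf3, the repressors and the 5 most alike genes were picked from these same data.

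Among 6 known activators of the 2-cell-like state, Dppa2 was the one with the largest falls. DPPA2 and DPPA4 work as a pair upstream of Dux in mouse embryonic stem cells. Dppa2 had 21.1 and 18.4 CPM in KDM4A del-IDR, against 46.5 and 44.9 CPM in KDM4A FL (-1.21 ± 0.07, adjusted p = 5.5e-18). In KDM4B it had 32.1 and 31.7 CPM in del-IDR, against 67.5 and 67.9 CPM in FL (-1.09 ± 0.07, adjusted p = 1.6e-16). Its groups did not overlap, and it rose in KDM6A (0.24 ± 0.06, but 0.02 with ERCC scaling) and in KDM6B (0.25 ± 0.07, but -0.14 with ERCC scaling). The KDM6A rise did not pass without replicate 1 of del-IDR or replicate 2 of FL, nor the KDM6B rise without replicate 2 of FL. Its partner Dppa4 rose in KDM4A (0.39 ± 0.06, but -0.26 with ERCC scaling) and fell in KDM4B (-0.20 ± 0.06, not passing without replicate 1 of del-IDR, -0.17, or replicate 2 of FL, -0.16). Tbx3, a pluripotency factor, fell in KDM4A (-1.09 ± 0.04) and KDM4B (-0.57 ± 0.04). Nelfa, a subunit of the negative elongation factor, fell as well (-0.86 ± 0.06 and -0.50 ± 0.05 in the same order). Gata2, a GATA factor, rose in both (2.38 ± 0.18 in KDM4A and 1.25 ± 0.19 in KDM4B). In all, 4 activators fell and 2 rose in KDM4A (all genes 25.9% and 24.6%), and 4 fell and 1 rose in KDM4B (all genes 17.6% and 18.6%). In KDM6A 2 rose (all genes 8.3%) and in KDM6B 3 rose (all genes 9.89%), while with ERCC scaling 5 fell and 1 rose in KDM4A and in KDM4B, 2 fell in KDM6A and 3 fell in KDM6B. Most of all genes called with that scaling were lower in each comparison, as given above.

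Of 21 known repressors of that state, 12 rose and 4 fell in KDM4A with TMM (median 0.20), but with ERCC scaling 0 rose and 17 fell. Of all genes 24.6% rose and 25.9% fell there with TMM. Most genes called were lower with ERCC scaling, as given above, so counts with it are no result about this list alone. In KDM4B 4 rose and 5 fell (0 and 12 with ERCC scaling), shares near the 18.6% and 17.6% of all genes. In KDM6A 6 rose and 3 fell (2 and 10 with ERCC scaling), where 8.3% and 8.65% of all genes did, and in KDM6B 2 rose and 1 fell (0 and 20 with ERCC scaling), where 9.89% and 10.7% did. The 4 with the smallest p were Mga, a subunit of the PRC1.6 complex, Chaf1b, a subunit of the histone chaperone CAF-1, the DNA methyltransferase Dnmt1, and Ncl, nucleolin. Chaf1b had 110 and 109 CPM in KDM4A del-IDR, against 65.3 and 61.8 CPM in KDM4A FL (0.79 ± 0.05, adjusted p = 1.8e-15), and rose in KDM4B (0.30 ± 0.05), but did not pass with ERCC scaling (0.13 and 0.11). Mga rose in KDM4A (0.43 ± 0.03) and KDM4B (0.26 ± 0.03, but 0.07 and not passing with ERCC scaling) and Dnmt1 in KDM4A (0.53 ± 0.04), while Mga and Dnmt1 went below 0 in KDM4A with ERCC scaling (-0.23 and -0.12). Ncl fell in KDM4A (-0.25 ± 0.03) and KDM4B (-0.18 ± 0.03) and rose in KDM6A (0.43 ± 0.03).

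Markers of cell types moved in some of the same comparisons. Of the 8 embryonic stem cell markers 5 fell and 2 rose in KDM4A, where 25.9% of all genes fell and 24.6% rose, and 6 fell and 1 rose in KDM4B, where 17.6% and 18.6% did. Their summed level was 1609 to 1663 CPM in KDM4A del-IDR against 1901 to 2010 CPM in KDM4A FL, and 1415 to 1476 CPM in KDM4B del-IDR against 1835 to 1914 CPM in KDM4B FL. In KDM6A 2 of them fell and 3 rose, where 8.65% of all genes fell and 8.3% rose. In KDM6B 3 rose, where 9.89% of all genes did. With ERCC scaling 4 fell in KDM6A and 5 in KDM6B and none rose, while most of all genes called were lower. Of 5 primitive endoderm markers 4 rose in KDM4A and 3 in KDM4B, against 24.6% and 18.6% of all genes, and their summed level was 30.2 to 30.8 CPM in KDM4A del-IDR against 10.2 to 10.5 CPM in KDM4A FL, and 13.6 to 14.2 CPM in KDM4B del-IDR against 7.39 to 8.03 CPM in KDM4B FL. The 5 trophectoderm markers, of which 4 were tested, summed to 19.01 to 20.3 CPM in KDM4A del-IDR against 12.4 to 13.8 CPM in KDM4A FL, to 16.9 to 17.2 CPM in KDM4B del-IDR against 11.6 to 11.9 CPM in KDM4B FL, and to 14.5 to 14.6 CPM in KDM6A del-IDR against 12.02 to 12.2 CPM in KDM6A FL. In KDM6B they were lower, at 24.5 to 25.5 CPM in del-IDR against 28.1 to 28.9 CPM in FL. Of the 4 tested, 3 rose in KDM4A, 3 in KDM4B and 1 in KDM6A, where 24.6%, 18.6% and 8.3% of all genes rose. In KDM6B 1 fell, where 10.7% of all genes did. With ERCC scaling 1 rose and 1 fell in KDM4A, 2 rose in KDM4B, none passed in KDM6A and 3 fell in KDM6B, and without replicate 2 of KDM4B FL 1 rose in KDM4B. The part of these markers in the Zscan4 levels was not tested.

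Other genes around the cluster were lower in the same comparisons. Within 250 kb of it, 60 further genes, without the pseudogenes, were listed, and they summed to 4.35 to 4.92 CPM in KDM4A del-IDR against 19.9 to 20.9 CPM in KDM4A FL, and to 6.77 to 7.13 CPM in KDM4B del-IDR against 32.98 to 34.2 CPM in KDM4B FL. Of these, 11 passed the filter. It asks for enough reads in only as many libraries as a group holds, so a rare gene can pass through the groups where it is high. The calls and medians of the 11 may be partly set by this and are a description. In KDM4A 5 fell (median of the 11 -1.85) against 25.9% of all genes, and 3 did so without replicate 1 of KDM4A del-IDR or of KDM4A FL. In KDM4B 4 fell (median -1.74) against 17.6% of all genes, and in KDM6A and KDM6B none passed, where 8.65% and 10.7% of all genes fell. Gm45551, outside the span, Gm18204, Gm6909 and Gm9689 fell in both KDM4 comparisons and are named after their values were seen. Gm45551 carried most of these reads in KDM4A FL and KDM4B FL, with 2.18 and 2.29 CPM in KDM4A del-IDR, against 12.4 and 13.8 CPM in KDM4A FL (-2.55 ± 0.15, adjusted p = 3.5e-17). In KDM4B it had 3.61 and 3.59 CPM in del-IDR, against 22.4 and 22.8 CPM in FL (-2.65 ± 0.14, adjusted p = 2.2e-18). Its groups did not overlap in either comparison. Gm18204 changed by -2.44 ± 0.30 and Gm6909 by -1.82 ± 0.38 in KDM4A. Gm9689 had at most 0.307 CPM in any library and did not pass in KDM4A without either del-IDR library or without replicate 1 of FL, nor in KDM4B without replicate 2 of del-IDR. Of the 11, 9 lie inside the cluster's span, and the first 4 by coordinate, Gm4903, Gm7836, Gm45395 and Gm38430, had at most 0.464 CPM in any library. Of these 4, Gm45395 passed in KDM4A (adjusted p = 0.0056), but not without replicate 1 of del-IDR or of FL. Gm45395 had no read in either KDM4A del-IDR library and 25 reads in KDM4A FL. If del-IDR is set at an assumed 3 reads over the group (0.0472 CPM), FL was 5.73-fold higher. The spread of the FL count is left out of that ratio.

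Repeat copies gave a view of the locus that did not use the Zscan4 exons. The deposited repeat table lists 1236 copies inside the span, 1215 of which do not touch a Zscan4 exon, and includes copies in introns and between the genes. Reads on these 1215 summed to 59.1 ± 0.832 CPM in KDM4A del-IDR against 226 ± 11.4 CPM in KDM4A FL, and to 89.9 ± 6.49 CPM in KDM4B del-IDR against 292 ± 0.598 CPM in KDM4B FL (SD, n = 2), ratios of 0.26 and 0.31. For KDM6A they held 177 ± 7.76 CPM in del-IDR against 175 ± 5.95 CPM in FL, and for KDM6B 36.7 ± 0.822 CPM against 36.7 ± 3.61 CPM. In both KDM6 pairs the libraries overlapped, whereas the exons differed there. Much of each sum came from 31 ERVL copies, with 104 CPM in KDM4A FL, 96.1 in KDM4B FL, 80.3 in KDM6A FL and 18.3 in KDM6B FL. The repeat families summed singly had del-IDR to FL ratios from 0.84 to 1.07 in KDM6A and from 0.65 to 1.45 in KDM6B. Both ends of the KDM6B range rest on few reads. Per KDM6B library there were 21 to 41 reads on ERVL-MaLR copies (0.65) and 23 to 44 on SINE Alu copies (1.45). With ERCC scaling the ratios of the whole sum were 0.17 and 0.27 in KDM4A and KDM4B and 0.87 and 0.77 in KDM6A and KDM6B, and the KDM6 libraries no longer overlapped. ERVL copies of 5 kb or longer anywhere in the genome, the class that holds full-length MERVL, had 2719 ± 102 CPM in KDM4A del-IDR against 6290 ± 214 CPM in KDM4A FL, and 2963 ± 93.7 CPM in KDM4B del-IDR against 5375 ± 262 CPM in KDM4B FL. They held 5672 ± 150 CPM in KDM6A del-IDR against 5168 ± 132 CPM in KDM6A FL, and 1346 ± 25.2 CPM in KDM6B del-IDR against 1594 ± 107 CPM in KDM6B FL. With TMM both directions were opposite to those of the Zscan4 exons. With ERCC scaling they were not, since the long ERVL copies then stood at ratios of 0.95 in KDM6A and 0.65 in KDM6B and the exons were lower in both. These sums are a description without a test and, where ERCC scaling is not named, use the TMM-scaled gene totals as CPM does.

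**Figure D5:**
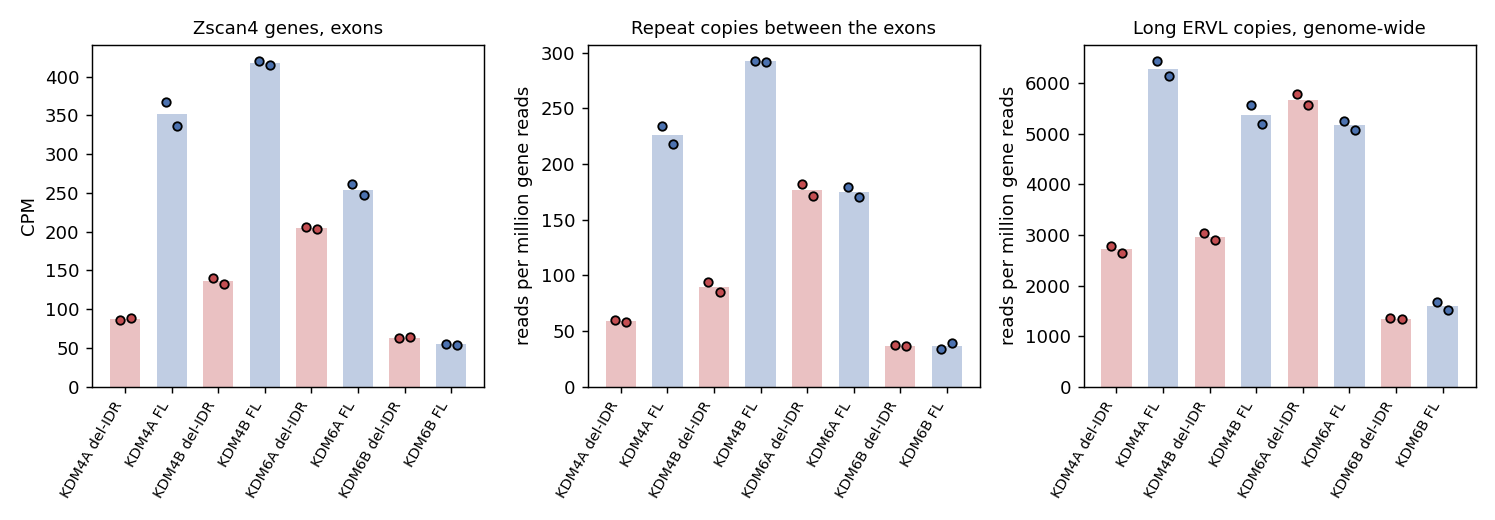
CPM (vertical axes, scaled to gene reads) for the exons of the 6 Zscan4 genes, for repeat copies inside the cluster's span that touch no Zscan4 exon, and for ERVL copies of 5 kb or longer genome-wide, by group with del-IDR (red) left of FL (blue). Points are libraries and bars means (n = 2). All 3 panels are lower in del-IDR for KDM4A and KDM4B, while for KDM6A and KDM6B the repeat panels do not follow the exons with this scaling.

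The genes whose log2 CPM was most like that of the cluster over the 16 libraries, among 14386 with at least 1 CPM on average and a symbol that is no gene model, were the odorant receptor genes Olfr1427 (r = 0.983) and Olfr1426 (r = 0.982) on chromosome 19, then Antxr1, an anthrax toxin receptor (r = 0.979), Mdfic (r = 0.978) and the vomeronasal receptor pseudogene Vmn1r-ps29 (r = 0.977), the last 3 on chromosome 6. In all, 362 genes exceeded r = 0.9, and since libraries of a group are alike, the likeness rests on 8 groups. The 5 genes were picked for this likeness in the same libraries, so a fall where the cluster fell was built into the choice. Their changes are given as a description. Olfr1427 had 0.524 and 0.685 CPM in KDM4A del-IDR, against 12.9 and 12.3 CPM in KDM4A FL (-4.39 ± 0.20). In KDM4B it had 3.46 and 2.39 CPM in del-IDR, against 22.1 and 23.4 CPM in FL (-2.96 ± 0.15). Mdfic had 35.7 and 38.1 CPM in KDM4A del-IDR, against 84.9 and 82.5 CPM in KDM4A FL (-1.18 ± 0.06). None of the 5 passed in KDM6A or KDM6B, where the Zscan4 sum did.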

How the data were processed

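Counts of chromatin-associated RNA reads in 16 libraries (8 groups of 2) were used. Per the file headers, the authors made the deposited gene and repeat-copy tables, which hold raw read counts, with featureCounts 2.0.3 (mapping quality of 30 or more), counting each read of a pair on either strand and dropping reads with several positions or features. The submitters' processing notes name HISAT2 and GRCm39. Antisense and overlapping genes are therefore uncertain. Libraries held 32739117 to 54890756 gene reads.

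GENCODE M21 gave symbols for 51948 Ensembl identifiers and none for 4993, and promoters came from RefSeq (GRCm38.p6). Tests used edgeR 4.0.16 (R 4.3.3), with filterByExpr over the groups at a minimum count of 10, TMM factors without the 92 ERCC RNAs, 1 robust quasi-likelihood fit of 8 group means (8 residual degrees of freedom), and Benjamini-Hochberg at 0.05 over 31057 genes. For the cluster, the 6 genes were replaced by their sum. The script was tested on simulated data. The 2 libraries of a group correlated at 0.980 to 0.988 (log2 CPM) and differed by more than sampling noise (median chi-square per gene 1.25 to 1.66, where independent reads give 0.455). Alternatives were DESeq2 1.42.0 (also its size factors), ERCC scaling, no filter, thinned counts, fits of 4 or 8 libraries, the pseudogenes added to the sum, a replicate block and leaving out each library. Members, lists and tests were chosen with earlier results of these data known. Named were all members, pseudogenes and demethylases, the 6 2-cell-stage genes and 4 repressors with the smallest p over the 4 comparisons, Duxf3, all activators, 4 neighbours (the first by coordinate of the 9 tested ones inside the span, which tie as nearest) and the 5 genes most like the sum. ERCC scaling of the repeat sums was added after seeing the data.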

Additional observations from a re-analysis of the deposited data

Results flagged for a closer look

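The deletion effect differed between paired demethylases by the interaction term of the fit across all genes. KDM4A minus KDM4B gave -0.39 for the cluster sum, -0.65 for Zscan4d, -0.55 for Zscan4e and -0.39 for Zscan4f (log2). KDM6A minus KDM6B gave -0.52 for the cluster sum, -0.68 for Zscan4a, -0.39 for Zscan4c, -0.45 for Zscan4d, -0.50 for Zscan4e and -0.71 for Zscan4f. With ERCC scaling Zscan4c (-0.23) and Zscan4d (-0.28) no longer passed in the KDM6 pair.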

How the results depend on the processing

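The cluster sum kept its direction and call in every setting tried for KDM4A (-2.66 to -2.01, leaving out 1 library -2.06 to -1.95), KDM4B (-1.81 to -1.61, -1.66 to -1.57) and KDM6A (-0.53 to -0.30, -0.35 to -0.27), and the KDM6B sum in all but ERCC scaling (-0.17), at 0.20 to 0.23 leaving out 1 library. The count of members called stayed at 6 in KDM4A and KDM4B. In KDM6A it was 5 or 6, and 3 to 6 leaving out 1 library (3 without either FL library). In KDM6B it was 4, but 0 with ERCC scaling, 1 in a fit of 4 libraries, 2 with DESeq2, and 0 to 4 leaving out 1 library (0 without replicate 2 of KDM6B del-IDR, 2 without either FL library). ERCC scaling also turned, in KDM4A, Dnmt1 (-0.12), Dppa4 (-0.26), Kdm4a (-0.17), Kdm6b (-0.65) and Mga (-0.23). In KDM6A it turned Dnmt1 (-0.15), Mga (-0.21) and Tbx3 (-0.026). In KDM6B it turned Antxr1 (-0.35), Chaf1b (-0.29), Dppa2 (-0.14), Dppa4 (-0.13), Gm2016 (-0.27), Kdm4b (-0.37), Kdm6b (-0.16), Ncl (-0.32), Trp53 (-0.12), Usp17lb (-0.34), Zscan4a (-0.11), Zscan4d (-0.16), Zscan4e (-0.18) and Zscan4f (-0.062). This scaling shifts the median of all genes, as given above. Same-numbered libraries deviated together at r = 0.103 to 0.172 in all 15 pairs among the KDM4A, KDM4B and KDM6A groups, a hint of a shared structure, and at -0.003 to 0.034 in all 13 pairs with a KDM6B group. Since the labels tie the numbers to nothing and not every pair passed 0.1, the numbers were not taken to pair the libraries. With the replicate block the sums were -2.01, -1.62, -0.31 and 0.21 for KDM4A, KDM4B, KDM6A and KDM6B, with 6, 6, 6 and 4 members called as without it. The block added Zscan4c to the difference of the KDM4 deletion effects (-0.31, adjusted p = 0.0137, edgeR) and to the gap of KDM4A FL to KDM4B FL (-0.21, adjusted p = 0.0134). The permutation over all demethylases gave -0.93 (exact p = 0.0469, smallest possible 0.00781).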
